A study of Drosophila melanogaster with 2 samples.

Results

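The mRNAs described here encode variant histones and the proteins that place histones on DNA, measured for their association with ME31B, a DEAD-box RNA helicase that represses maternal mRNAs. The 10 genes were taken by name and were each found in the deposited table among 16863 genes. They are 5 variant histone genes (*His2Av*, *His3.3A*, *His3.3B*, *His4r* and *BigH1*), 4 genes of deposition factors (*Hira*, *yem*, *asf1* and *Caf1-180*) and *Slbp*, whose product binds histone mRNA and is not itself a chaperone. The 2 libraries were an immunoprecipitate of ME31B and the input lysate from which it was made, with 1 library each. Both came from stage 14 oocytes, the mature oocytes held before egg activation, collected from a large fly culture and therefore pooled over many females. The labels give both libraries the strain eGFP-Me31B in a w1118 background, whereas the methods name w1118 flies for these oocytes without the tag. The antibody of the immunoprecipitate is not named in its label and was assumed to be the anti-GFP named in the methods, and RNA recovered by control IgG was not analysed here.

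Most histone mRNA of dividing cells comes from replication-dependent genes, which lie in repeated clusters and whose transcripts end in a stem-loop instead of a poly(A) tail. Variant histones are encoded by separate genes with polyadenylated mRNAs and are made outside S phase as well. The early *Drosophila* embryo divides too fast to rely on its own transcription, so the egg is stocked with histone protein, histone mRNA and deposition factors. At fertilization the sperm chromatin is rebuilt with maternal histones, a step in which the chaperone HIRA and its partner Yemanuclein deposit H3.3. No sequence of these genes or proteins was used here.

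Levels are in FPKM, which scale the reads of a gene to its transcript length and to the size of the library, so that genes can be set side by side within a library. Occupancy is the FPKM in the immunoprecipitate over the FPKM in the input. It was taken as log2 and set relative to the median gene among the 6886 genes above 0.5 FPKM in both libraries. That median gene had an occupancy of 1.26, a log2 value of 0.33, and the quartiles of all genes lay at 0.55 and −0.62 around it. With 1 library of each kind there is no replicate check, no p-value was computed, and the order of genes given below has no error attached. How many reads each library held is not given in the sources used, so no counting interval could be attached either.

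Defining markers of the oocyte were present in both libraries. All 8 germline genes fixed as markers were above the minimum, with summed levels of 16046 FPKM in the immunoprecipitate and 14047 FPKM in the input. Most of each sum came from *dhd*, at 13967 FPKM in the immunoprecipitate and 12458 FPKM in the input. The lowest, *grk*, had 10.8 FPKM in the immunoprecipitate and 5.38 FPKM in the input. Of 8 male germline genes, none was above the minimum and 4 were listed at 0 in both libraries. Eggshell genes of follicle cells were also present, at a summed 495 FPKM in the immunoprecipitate and 860 FPKM in the input, with 8 of 8 above the minimum. The highest of them reached 309 FPKM in the immunoprecipitate and 520 FPKM in the input. Of 6 midgut genes 3 were above the minimum, with summed levels of 20.3 FPKM in the immunoprecipitate and 33.8 FPKM in the input. From the level of an mRNA in a bulk lysate, fewer cells of a type and less RNA per cell cannot be told apart, and neither can differ between an immunoprecipitate and its own input. The part of follicle cell RNA in the values of the histone genes was not tested.

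The 10 mRNAs were all above the minimum in both libraries, and between 2.82% and 93.3% of all genes had a lower occupancy than each of them. The mRNAs of *Slbp* and *His2Av* were more than 2-fold above the median gene, and those of *Hira*, *yem* and *Caf1-180* were more than 2-fold below it. The 5 other mRNAs lay between. By this fixed rule of size, 2 of 10 were above and 3 of 10 were below, where 9.48% of all 6886 genes were past the upper limit and 15.2% past the lower limit. The median of the 10 was −0.12 on the log2 scale relative to the median gene, which is 0 by definition. Without centring, 20.3% of all genes were at least 2-fold above and 9.15% at least 2-fold below an occupancy of 1, and 2 of the 10 mRNAs lay above and 2 below, with *Caf1-180* no longer among them at −0.71. Together, the 10 mRNAs made up 0.68% of the summed FPKM in the immunoprecipitate and 0.45% in the input.

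**Figure D1:**
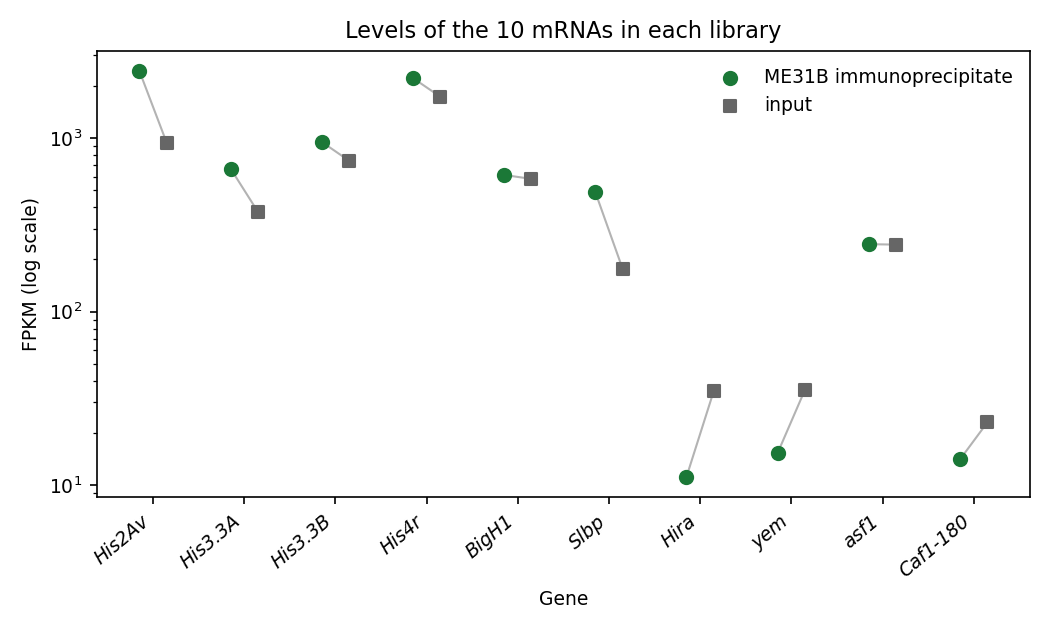
FPKM of the 10 mRNAs on a log axis, with circles for the ME31B immunoprecipitate and squares for the input, 1 library each, and lines joining the values of a gene. The variant histone mRNAs sit between 613 and 2433 FPKM in the immunoprecipitate, whereas *Hira*, *yem* and *Caf1-180* sit between 11.2 and 15.4 FPKM there and lower than in the input.

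The variant histone mRNAs were abundant in the oocyte, with a level between 613 and 2433 FPKM in the immunoprecipitate and between 376 and 1730.0 FPKM in the input. Their occupancies differed from gene to gene. *His2Av* encodes the H2A variant that in flies does the work of both H2A.Z and H2A.X of mammals. It had 2433 FPKM in the immunoprecipitate, against 937 FPKM in the input. This occupancy of 2.60 was at 1.04 on the centred log2 scale, 2.06-fold above the median gene, and 91.4% of all genes kept were lower. Ranked by level, *His2Av* was gene 64 in the immunoprecipitate and gene 156 in the input. Its gene spans 2292 bp on chromosome arm 3R, from 26866929 to 26869220 in Release 6, and overlaps no other annotated gene. The value stood only just past the limit of 1 and was 0.99 when the median was taken over genes above 5 FPKM in both libraries.

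The replacement H3 of the fly is encoded by 2 separate genes, *His3.3A* and *His3.3B*, whose products are the same protein. *His3.3A* had 667 FPKM in the immunoprecipitate and 376 FPKM in the input, 0.49 above the median gene on the log2 scale. *His3.3B* had 951 FPKM in the immunoprecipitate and 740.3 FPKM in the input, 0.03 from the median gene. In each library *His3.3B* was thus the more abundant, by 1.42-fold in the immunoprecipitate and 1.97-fold in the input. *His3.3A* made up 41.2% of the summed FPKM of the pair in the immunoprecipitate, against 33.7% in the input, as its occupancy was the higher of the pair by 0.47 on the log2 scale. Whether this gap exceeds the error of a single library cannot be told. The sequences of the genes were not compared, so whether reads from 1 could be counted for the other is not known. *His3.3A* spans 1092 bp on arm 2L, from 5055058 to 5056149, and overlaps *Nepl3*, while *His3.3B* spans 4147 bp on the X chromosome, from 9152523 to 9156669, and overlaps none.

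*His4r* is the replacement gene for H4, and its mRNA is polyadenylated. It was the most abundant of the 10 in the input, with 2218 FPKM in the immunoprecipitate and 1730.0 FPKM in the input. Its occupancy was 0.02 from the median gene on the log2 scale. This was nearly the value of *His3.3B*, and the level of *His4r* was 2.33-fold that of *His3.3B* in the immunoprecipitate and 2.34-fold in the input. Against both H3.3 mRNAs together, which summed to 1618 FPKM in the immunoprecipitate and 1116 FPKM in the input, *His4r* stood at 1.37-fold in the immunoprecipitate and 1.55-fold in the input. The level of *His2Av* was 1.10-fold that of *His4r* in the immunoprecipitate and 0.54-fold in the input, so the order of these mRNAs differed between the libraries. The gene of *His4r* spans 860 bp on arm 3R, from 14625755 to 14626614.

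*BigH1* encodes the linker histone of the germ line and early embryo, which takes the place of somatic H1 until the zygotic genome is activated. Its mRNA had 613 FPKM in the immunoprecipitate and 582 FPKM in the input. That placed it at −0.26 on the centred log2 scale, although the occupancy itself was 1.05, so that without centring it lay at 0.08 on the other side. The occupancy of *His2Av* was 2.46-fold that of *BigH1*. The gene spans 1373 bp on arm 3R, from 14663450 to 14664822, with no overlapping gene.

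*Slbp* encodes the stem-loop binding protein, which holds the 3′ end of replication-dependent histone mRNAs and is needed for their processing and translation. Of the 10 mRNAs it had the highest occupancy, with 489 FPKM in the immunoprecipitate and 176 FPKM in the input. This occupancy of 2.77 was at 1.14 on the centred log2 scale, and 93.3% of genes were lower. It ranked at gene 381 by level in the immunoprecipitate and at gene 666 in the input. Its gene spans 1193 bp on arm 3R, from 29152074 to 29153266, and overlaps no other. The protein-coding genes most like *Slbp* in both libraries, by the distance of their log2 FPKM, were *CG9921*, *CG32276* and *mRpL14*, at distances between 0.07 and 0.08. Likeness over 2 libraries means only that both levels are close.

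**Figure D2:**
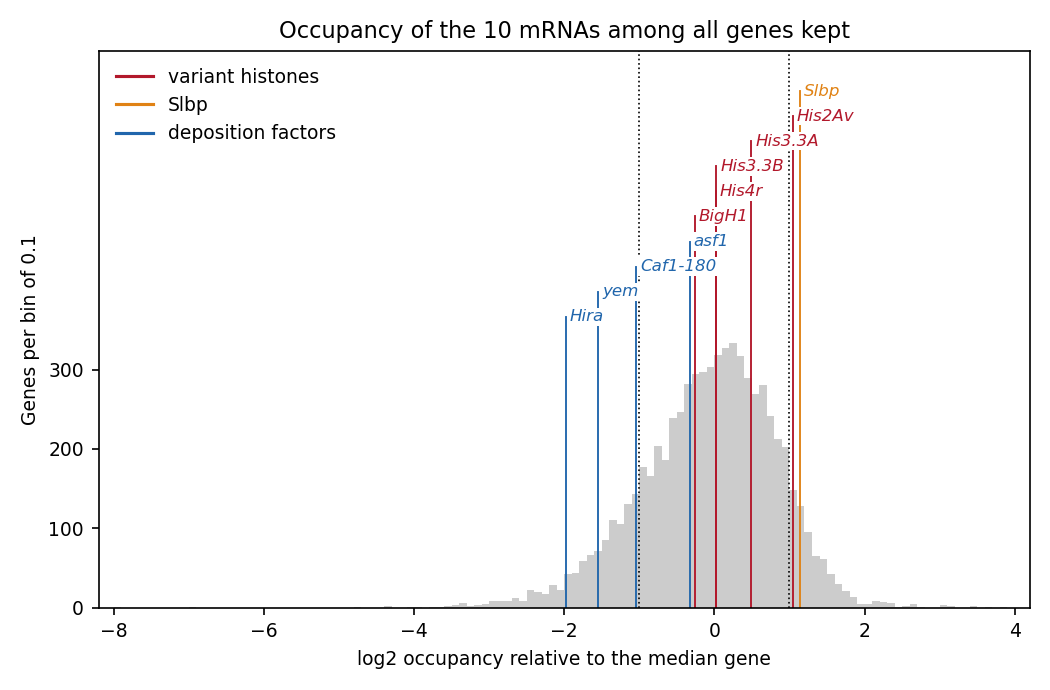
Histogram of log2 occupancy relative to the median gene for the 6886 genes that passed the minimum of 0.5 FPKM, in bins of 0.1, with the 10 mRNAs as vertical lines coloured by role and the 2-fold limits dotted. The variant histones run from −0.26 to 1.04, *Slbp* stands at 1.14, and the deposition factors run from −1.98 to −0.33.

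The 4 deposition factors lay below the median gene, and 3 of them were more than 2-fold below it, where 15.2% of all genes were. Of the 3, *Caf1-180* was close to the limit and not past it under 5 changes of filter, pseudocount or centring, which leaves 2. Under those 5 changes, between 3.93% and 12.9% of the genes used in each were past the lower limit. *Hira* encodes the chaperone that loads H3.3 with H4 independently of DNA replication. It was the lowest of the 10, with 11.2 FPKM in the immunoprecipitate and 35.0 FPKM in the input. Its occupancy of 0.32 corresponded to −1.98 on the centred log2 scale, 3.95-fold below the median gene, and only 2.82% of genes were lower. *yem* encodes Yemanuclein, the ubinuclein-like partner of HIRA. Its level was close to that of *Hira*, with 15.4 FPKM in the immunoprecipitate and 35.5 FPKM in the input, and its occupancy was at −1.54, or 2.92-fold below the median gene. The mRNAs of these partner proteins thus had about the same level in the input, with *yem* 1.01-fold that of *Hira*, and both were low in the immunoprecipitate. *Hira* spans 3799 bp on the X chromosome, from 7722119 to 7725917, and overlaps no gene. The 4550 bp of *yem* on arm 3R, from 29118330 to 29122879, overlap *Atg14*, so that some reads may belong to the neighbour. The protein-coding genes nearest to *Hira* by the same distance were *TBCD*, *Nup154* and *CG6726*, at distances between 0.12 and 0.15.

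The chaperone Asf1 carries H3 and H4 and hands them on to either HIRA or the replication-coupled complex CAF-1. The mRNA of *asf1* was the most abundant among the deposition factors, with 245 FPKM in the immunoprecipitate and 243 FPKM in the input. An occupancy of 1.01 placed it at −0.33 on the centred log2 scale, and at 0.01 without centring. Its level was 21.9-fold that of *Hira* in the immunoprecipitate and 6.95-fold in the input, so that the occupancy of *asf1* was 3.15-fold that of *Hira*. Its gene spans 1505 bp on arm 3L, from 19618894 to 19620398.

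*Caf1-180* encodes the large subunit of CAF-1, which deposits H3 and H4 behind the replication fork. It was the least abundant of the 10 in the input, with 14.1 FPKM in the immunoprecipitate and 23.0 FPKM in the input. Its occupancy was at −1.04 on the centred log2 scale, just past the limit, and 14.3% of genes were lower. With a pseudocount of 1 FPKM it was at −0.98, short of the limit. The other CAF-1 subunits had higher occupancies, *Caf1-55* by only 0.18 on the log2 scale. Relative to protein-coding genes of like span the order differed, with *Caf1-55* at −1.22, *Caf1-180* at −0.60 and *Caf1-105* at −0.02. *Caf1-105* had 80.3 FPKM in the immunoprecipitate and 66.9 FPKM in the input and was at −0.07. *Caf1-55*, whose WD40 protein also serves other chromatin complexes, had 206 FPKM in the immunoprecipitate and 297 FPKM in the input and was at −0.87. *Caf1-180* spans 4168 bp on the X chromosome, from 8602137 to 8606304.

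The 10 genes also differ in genomic span, which includes introns and is not transcript length. Across 6543 protein-coding genes occupancy was lower for longer spans, with a Spearman rho of −0.45, and across the 10 genes rho was −0.56. These are descriptions across genes of the same 2 libraries, not across replicates. The 3 mRNAs below the limit belong to genes with spans between 3799 and 4550 bp. *His3.3B*, at 4147 bp, is as long and lay at the median gene. Beside the protein-coding genes of their own class of span, *His2Av*, *Hira*, *His3.3B*, *His4r*, *BigH1* and *asf1* held more extreme percentiles than over all genes. *Slbp*, *His3.3A*, *yem* and *Caf1-180* held less extreme ones. Among 1831 protein-coding genes of 2000 to 4000 bp, 95.2% were lower than *His2Av* and 0.82% were lower than *Hira*. Among 1163 genes of 4000 to 8000 bp, 70.2% were lower than *His3.3B*, 25.1% lower than *Caf1-180* and 9.97% lower than *yem*. *His4r* was at −0.55 relative to the median of the 655 genes under 1000 bp. Of the 1766 genes of 1000 to 2000 bp, 90.0% were lower than *Slbp*, 57.9% lower than *His3.3A*, 19.8% lower than *BigH1* and 17.7% lower than *asf1*. Set against its own class, *Slbp* was 0.78 above the class median and fell short of the 2-fold limit, as did *Caf1-180* at −0.60, while *His2Av* was at 1.09, *Hira* at −1.93 and *yem* at −1.10. The part of transcript length in these values was not tested.

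**Figure D3:**
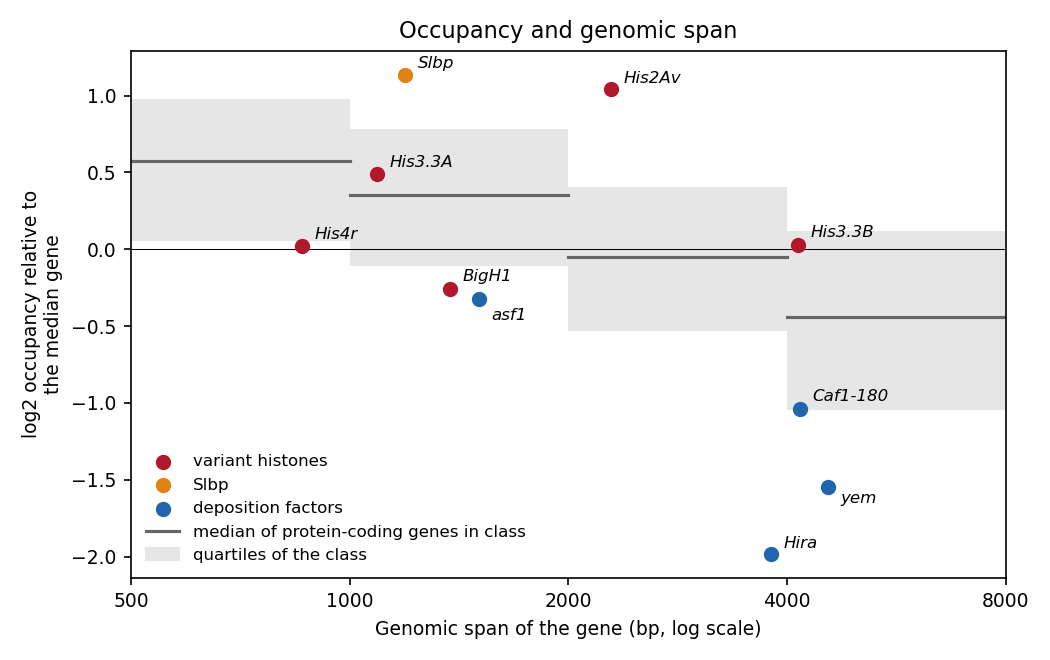
log2 occupancy relative to the median gene of the 10 mRNAs against the genomic span of their genes in bp on a log axis, with the median and quartiles of protein-coding genes in each class of span in grey. *His2Av*, at 1.04, stands above the quartiles of its class and *Hira*, at −1.98, below those of the same class.

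Abundance differed along with occupancy. The variant histones, *Slbp* and *asf1* had input levels of at least 176 FPKM, and the 3 mRNAs more than 2-fold below the median gene had between 23.0 and 35.5 FPKM. Over the 10 genes, Spearman's rho between input FPKM and occupancy was 0.59, and over all 6886 genes it was 0.17. Input FPKM is also the denominator of occupancy, and the part of abundance in the values was not tested.

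The mRNAs of replication-dependent histones were mostly listed at 0. Of 72 such rows in the table, 69 were at 0 FPKM in both libraries, among them all rows for H2A, H3 and H4. The exceptions were *His2B:CG33868*, with 649 FPKM in the immunoprecipitate and 282 FPKM in the input, *His1:CG33849*, with 4.62 FPKM in the immunoprecipitate and 0.61 FPKM in the input, and *His1:CG33834*, which stayed below the minimum in the input. The copies of each replication-dependent histone gene are near-identical, and the handling of reads with several positions is not given in the sources used. A value of 0 can thus come from reads left unassigned, and the level of 1 copy may hold reads of others. The methods also name a stranded mRNA library kit after rRNA depletion. Whether poly(A) RNA was selected is not stated, and its part in the values of 0 was not tested. No ratio of variant to replication-dependent histone mRNA was taken.

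Other histone chaperones were then examined. For this list and those that follow, calls and counts were made over all genes and not within classes of span. Of 17 further chaperone genes, 16 were above the minimum, 6 (37.5%) passed the lower 2-fold limit and none the upper, where 15.2% and 9.48% of all genes did, with a list median of −0.76. *mil* was listed at 0 in both libraries. The lowest was *Mcm2*, a subunit of the replicative helicase that also binds H3 and H4, at −1.91, with 37.5 FPKM in the immunoprecipitate and 112 FPKM in the input. Both subunits of FACT, the chaperone that opens nucleosomes for polymerases, were low, *dre4* at −1.79 and *Ssrp* at −1.36. *Spt6*, a chaperone of transcription elongation, was at −1.88, *XNP*, the fly form of ATRX, at −1.20 and *Dek* at −1.06. Set against their own class of span, *XNP* at −0.76 and *Dek* at −0.62 fell short of the limit. *Mcm2* at −1.86, *Spt6* at −1.44, *dre4* at −1.35 and *Ssrp* at −1.32 stayed past it. *Daxx*, related to the H3.3 chaperone DAXX of mammals, was at −0.23.

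The highest chaperones were the nucleoplasmins. *Nph* and *Nlp* encode members of this family, which bind histones in eggs and take part in decondensing sperm chromatin. *Nph* had 3158 FPKM in the immunoprecipitate and 1381 FPKM in the input, 0.86 above the median gene. *Nlp* had 1638 FPKM in the immunoprecipitate and 727 FPKM in the input, 0.84 above it. Neither reached the 2-fold limit over all genes, and the spans of these genes overlap each other. Within its own class of span *Nlp* was past the limit at 1.28, and *Nph* was not, at 0.51. *Nap1*, a chaperone of H2A and H2B, was at −0.07 with 1410 FPKM in the immunoprecipitate and 1171 FPKM in the input. *Jabba*, whose protein anchors histones on lipid droplets of the embryo, was at 0.08 with 1037 FPKM in the immunoprecipitate and 776 FPKM in the input. The histone gene regulator *abo* was at 0.81.

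**Figure D4:**
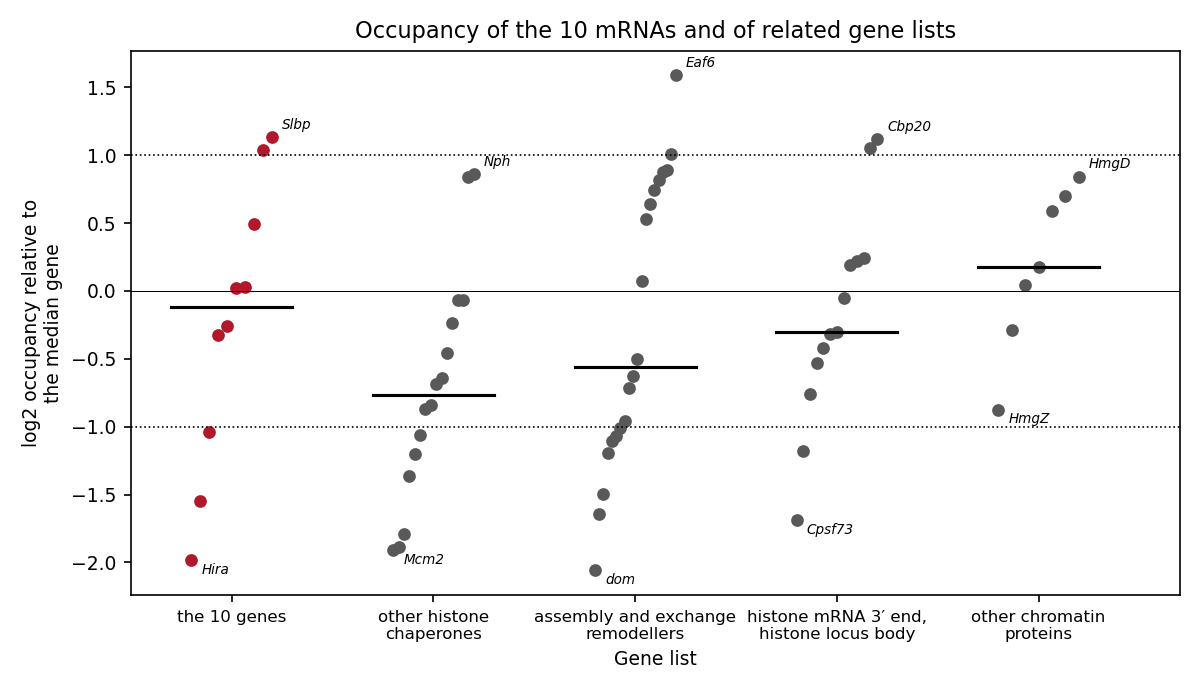
log2 occupancy relative to the median gene for the 10 mRNAs, in red, and for 4 related lists, in grey, where genes passed the minimum of 0.5 FPKM, with each point a gene, black bars the list medians and dotted lines the 2-fold limits. The other chaperones have a median of −0.76 and run from −1.91 to 0.86, and the 10 mRNAs have a median of −0.12 and run from −1.98 to 1.14.

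Among the remodellers that assemble nucleosomes or exchange H2Av, occupancy varied widely from subunit to subunit. All 20 were above the minimum, with 7 (35%) past the lower and 2 (10%) past the upper 2-fold limit and a list median of −0.56. The upper share is near the 9.48% of all genes, and 15.2% of all genes were past the lower limit. The lowest was *dom*, the ATPase that exchanges H2Av into chromatin, at −2.06, with 8.84 FPKM in the immunoprecipitate and 29.2 FPKM in the input. *dom* spans 18418 bp and holds small nucleolar RNA genes, whose reads may be counted with it. Other subunits of its complex were also low, *E(Pc)* at −1.65, *Brd8* at −1.07 and *Ing3* at −1.01. Those above the limit belong to the same complex, *Eaf6* at 1.59, whose span overlaps *mthl2*, and *DMAP1* at 1.01. *Ing3* and *DMAP1* were only just past the limits. Within their own class of span they fell short, at −0.96 and 0.66, whereas *dom* at −1.44 and *Eaf6* at 1.23 did not. Between the limits, other subunits of the complex lay on both sides of the median gene, from *Nipped-A* at −0.96 to *YL-1* at 0.89. Of the remodellers that space nucleosomes, *Chd1*, which in flies takes part in H3.3 deposition on the paternal genome, was at −1.49, *Iswi* at −1.19 and *Acf* at −1.11, whereas the histone-fold subunits *Chrac-14* and *Chrac-16* were at 0.87 and 0.53.

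The partners of *Slbp* in histone mRNA 3′ end formation lay on both sides of the median gene. Of 13 genes of that machinery and of the histone locus body, all above the minimum, 2 passed the upper and 2 the lower 2-fold limit, 15.4% in each direction, with a list median of −0.31. These shares are near the 9.48% and 15.2% of all genes. *Cbp20*, the small subunit of the nuclear cap-binding complex, was the highest at 1.12, with 521 FPKM in the immunoprecipitate and 191 FPKM in the input. *Lsm10*, a subunit of the U7 ring that recognizes histone pre-mRNA, was at 1.05. *Cpsf73*, the endonuclease, was the lowest at −1.69, with 25.5 FPKM in the immunoprecipitate and 65.2 FPKM in the input, and its scaffold *Sym* was at −1.18. The genes of *Lsm10* and *Cpsf73* overlap neighbours. Within their own class of span, *Cbp20* at 0.54, *Lsm10* at 0.48 and *Sym* at −0.74 fell short of the limits, and *Cpsf73* at −1.64 did not.

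The list of other chromatin proteins and centromeric or sperm histones had 7 of 10 genes above the minimum, with a median of 0.18. None was past 2-fold in either direction, where 9.48% of all genes were past the upper and 15.2% past the lower limit. With so few genes, such a count is not read as a trait of the list. *cid*, which encodes the centromeric H3, had 167 FPKM in the immunoprecipitate and 81.9 FPKM in the input and lay 0.70 above the median gene. The highest was *HmgD*, an HMG-box protein of early embryonic chromatin, at 0.84, with 2391 FPKM in the immunoprecipitate and 1058 FPKM in the input. Its neighbour *HmgZ* was the lowest at −0.87, with 0.79 FPKM in the immunoprecipitate and 1.15 FPKM in the input, and the spans of these genes overlap. Within their own class of span, *HmgD* was past the upper limit at 1.26, and *HmgZ* was at −0.45. The 3 genes below the minimum encode the sperm proteins ProtA, ProtB and Mst77F, each at most 0.20 FPKM in either library.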

How the data were processed

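RNA from the immunoprecipitate and the input, with 1 library each, was sequenced by the authors after rRNA depletion. Libraries were made with Illumina's TruSeq stranded mRNA kit. The methods and processing notes name bcl2fastq 2.17 for conversion, STAR 2.5.2a for mapping to dm6, Cufflinks 2.2.1 for quantification and R 3.1.2 for later steps. The authors deposited FPKM, 1 value per gene and library. Annotation release, the strand setting of the quantification and handling of multiply mapped reads are not given in the sources used. Depth could not be recovered: of 1054 genes listed below 0.5 FPKM but not at 0 in either library, only 31 shared the commonest ratio of immunoprecipitate to input, rounded to 0.01.

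Occupancy was the ratio of FPKM given in the methods, which also state the minimum of 0.5 FPKM, applied here to both libraries. Taking log2 without a pseudocount and centring on the median gene were added here (Python 3.11.15, pandas 2.3.3). The computation was run on simulated data with planted ratios and no measurement error. That checks only the arithmetic and not the reliability of calls from single libraries. Genes were called by size, at least 2-fold, and no test was run. Spans, coordinates and overlaps come from RefSeq Release 6, which matched 6839 of 6886 genes. Named list genes are the highest and lowest and those past 2-fold with an input of at least 1 FPKM, and other named list genes were chosen after their values were seen. *mil* was listed under 2 names and counted once. The members and the 6 related lists were chosen with earlier results of these data known.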

Additional observations from a re-analysis of the deposited data

How the results depend on the processing

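No paired analysis was possible because the immunoprecipitate and the input are 1 library each, and for the same reason no library could be left out. Of 70 values for single genes under the other settings, 56 kept their side of the median and of the 2-fold limit, 7 no longer passed the limit and 7 small values changed sign. Those that changed sign belong to *asf1*, *BigH1*, *His4r* and *His3.3B*. None of the 5 genes past the 2-fold limit changed sign, and *Hira* and *yem* stayed past 2-fold under each change of filter, pseudocount and centring. The count above the limit was 1 among genes above 5 FPKM, where 8.17% of all genes kept were above it. It was also 1 when centred on genes of like span, where 7.09% of protein-coding genes were. At 1.5-fold, 2 were above and 3 below, where 23.8% and 26.3% of all genes were. At 3-fold, 0 were above and 1 below, where 1.79% and 5.95% of all genes were. The median of the 10 genes was −0.12, and was 0.22 without a filter at a pseudocount of 0.5 FPKM, 0.22 without centring, 0.14 without centring but with both columns rescaled to a sum of 1000000 FPKM, and −0.58 when centred by span. Those positive values use a ratio of 1 as the reference point, which is also the median of all genes without a filter. Read depth is unknown, so the precision of *Hira*, *yem* and *Caf1-180*, the least abundant of the 10, cannot be given.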
